A study of Mus musculus with 30 samples.

Results

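Kidney and gastrocnemius, a calf muscle, were compared on the control diet in 10 of the 30 poly(A)-enriched RNA-seq libraries of the series, 5 from each tissue. The libraries were chosen by their labels alone, as those of C57BL/6J mice of WT genotype on CD+water, that is the control chow diet (CD) with water given by gavage 3 times per week. These mice carried no transgene or deletion that the sources name and had received no cyclo(His-Pro) (CHP), the compound under study. They were housed at thermoneutrality (30–32 °C) from Week 6, fed the CD from Week 7 and killed at Week 24, after 3 h without food. The gastrocnemius labels and the study's methods give male mice. The other 20 libraries, of the western diet (WD) and of the WD with CHP, were used only to repeat the comparison. No label ties a kidney to the gastrocnemius of the same mouse, and none says more of the replicates than their number, so p-values measure the spread between these libraries. The labels of both tissues name frozen liver as the starting material and different RNA kits, whereas the study's methods name kidney and gastrocnemius and 1 kit for both. The 2 tissues came from separate sequencing runs and were counted on different gene lists, so tissue, sequencing run, gene list and any difference in kit cannot be told apart, and only differences of at least 4-fold (an absolute log2 fold change of 2) at an adjusted p under 0.05 are called here.

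Kidney and gastrocnemius put their RNA to very different uses. The kidney tubule takes back salt, water, glucose, amino acids and phosphate from the filtrate through a chain of segments, each with its own transporters, and also makes glucose and hormones. The mouse gastrocnemius is made up mostly of fast fibres, which hold large amounts of a few contractile proteins, of calcium-handling proteins and of the enzymes that burn glycogen. In bulk RNA, fewer cells of a type and less RNA per cell cannot be told apart.

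Kidney libraries held 37706595 to 38211422 counts each and gastrocnemius libraries 51754034 to 53282969. A few genes took most of the muscle RNA. Only 40 to 51 genes gave 50% of all counts in gastrocnemius as against 342 to 375 genes in kidney, and the 10 most abundant genes of each library held 31.8 to 33.8% and 24.1 to 25.2%. Levels are given as CPM, the counts of a gene divided by the library total and set to a common scale, on library sizes scaled by TMM (trimmed mean of M-values), whose factors were 0.714 to 0.775 in gastrocnemius and 1.32 to 1.35 in kidney. The proximal tubule list held 4.92 to 5.34% of kidney and 0.0322 to 0.0358% of gastrocnemius counts, and the fast fibre list 21 to 23.7% of gastrocnemius and 0.00186 to 0.00208% of kidney counts, so each group held the markers of its labelled tissue.

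Transcripts of other organs stood out in 3 libraries. In gastrocnemius replicate 5, 801 genes reached at least 0.3 CPM and more than 10 times their level in any other gastrocnemius library, against 45 in replicate 1 and 0, 0 and 1 in replicates 2, 3 and 4. The same count within kidney was 16 in replicate 1 and 0 to 2 in the other 4. The genes of gastrocnemius replicate 5 included spermatid genes such as Ldhc, the sperm lactate dehydrogenase (21.3 CPM), Prm2, a protamine (11.9 CPM), and Akap4, a protein of the sperm tail (9.65 CPM). The summed level of 18 spermatid genes, a list written after the values were seen, was 159 CPM there, 0.684, 0.917, 0.741 and 0.72 CPM in gastrocnemius replicates 1 to 4 and 2.96 to 3.74 CPM in kidney. The 12 genes of the hepatocyte list summed to 91.7 CPM in gastrocnemius replicate 1 and to 2.9, 0.664, 4.91 and 0.777 CPM in replicates 2 to 5. Kidney expresses several of that list itself (355 to 527 CPM in sum), but albumin (Alb) was at 61.6 CPM in kidney replicate 1 and at 8.3, 6.93, 10.7 and 6.83 CPM in replicates 2 to 5, beside 62.7 CPM in gastrocnemius replicate 1. Values without these libraries are given beside several results that they touch.

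**Figure D1:**
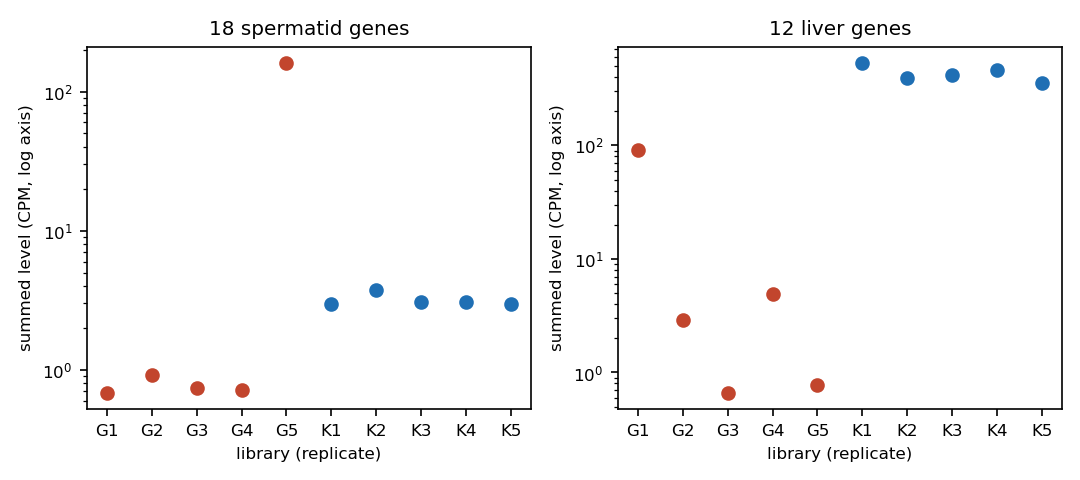
Summed level (CPM, log axis) of 18 spermatid genes and of 12 liver genes in each of the 10 libraries, gastrocnemius (G, red) and kidney (K, blue) by replicate. Gastrocnemius replicate 5 stood at 159 CPM of spermatid genes and gastrocnemius replicate 1 at 91.7 CPM of liver genes, each above the other 4 gastrocnemius libraries.

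Of 17228 genes tested, 3566 were called higher in kidney (20.7%) and 2428 higher in gastrocnemius (14.1%), by edgeR's quasi-likelihood test with Benjamini-Hochberg adjustment. These shares are the background for every list below. With no fold line, 15185 genes (88.1%) passed an adjusted p of 0.05, and in 81.3% of all genes the 2 groups of 5 libraries did not overlap, while 7222 genes (41.9%) differed by less than a log2 fold change of 1. The median log2 fold change over all genes was 0.08. Fold changes of at least 32 (log2 of 5) were called for 1347 genes in kidney and 882 in gastrocnemius, and 366 of the kidney calls and 185 of the gastrocnemius calls had 0 counts in all 5 libraries of the other tissue. Kidney made up 59.5% of the calls. This split depended on the scaling. The kidney part was 59.8% with DESeq2 size factors and 60.2% with upper-quartile scaling, but 74.9% with plain library totals. With those totals 5135 genes were higher in kidney and 1719 in gastrocnemius, and the median of all genes was 0.92 on the log2 scale. Without the 3 libraries described above, an alternative chosen after seeing the data, 3945 and 2424 genes were called, and 3499 of the 3566 kidney calls and 2350 of the 2428 gastrocnemius calls were among them.

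**Figure D2:**
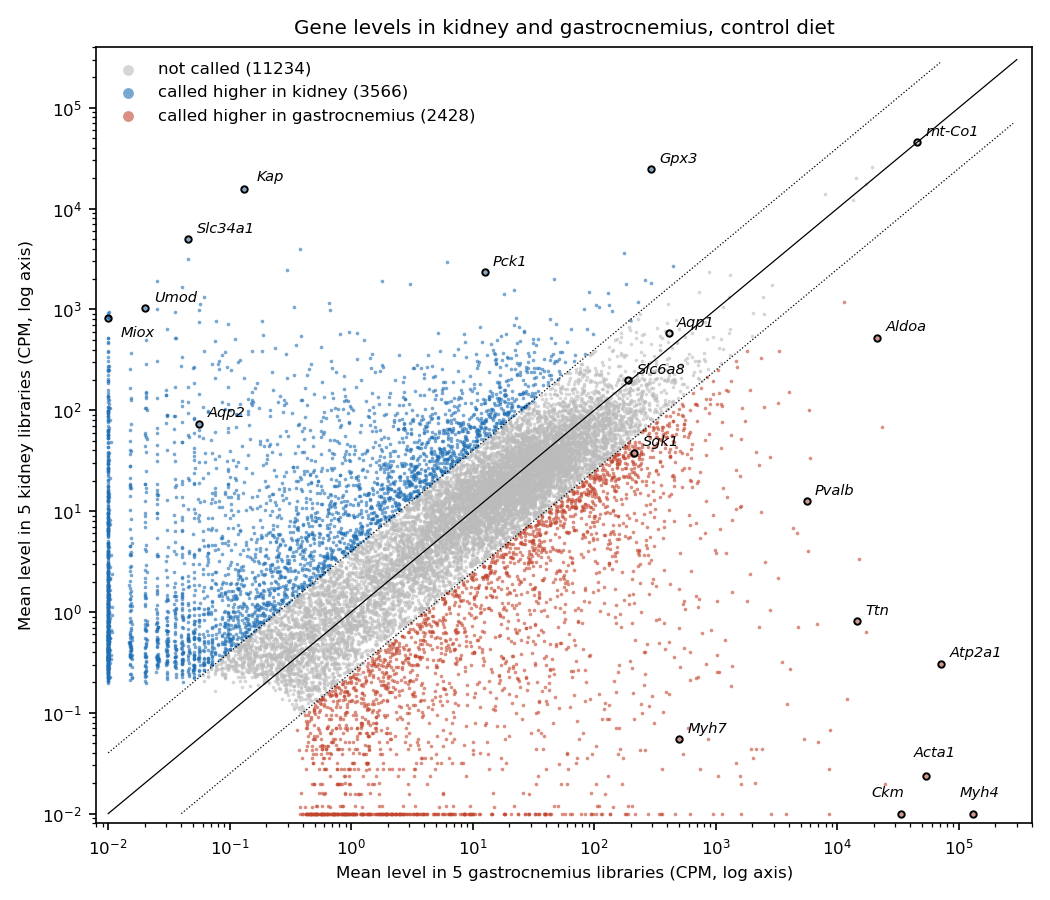
Mean CPM of each of the 17228 genes in the 5 gastrocnemius libraries (x axis) and the 5 kidney libraries (y axis), both on log axes, with means under 0.01 CPM drawn at 0.01. The solid line marks equal levels, the dotted lines a 4-fold difference, and 3566 genes were called on the kidney side and 2428 on the gastrocnemius side, with Aqp1 and Slc6a8 near the diagonal and Myh4, Ckm and Acta1 in the lower right corner.

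The kidney calls were led by secreted proteins and by transporters and enzymes of the proximal tubule. Kap, the kidney androgen-regulated protein of the proximal tubule (chr6:133849851-133853762 in GRCm38), was at 14804, 16968, 16990, 14882 and 14568 CPM in the 5 kidney libraries and at 0.659, 0, 0, 0 and 0 CPM in the 5 gastrocnemius libraries (log2 fold change 16.82, SE 0.456, adjusted p = 5.91e-13). All of its gastrocnemius counts came from replicate 1, the library with liver genes. Without the 3 libraries with transcripts of other organs it had 0 gastrocnemius counts and was at least 618077-fold higher in kidney, against a floor of 3 counts over the 3 gastrocnemius libraries that remained. Gpx3, the glutathione peroxidase that kidney secretes into plasma, was at 23476, 24119, 21568, 24733 and 29672 CPM in kidney, against 261, 316, 314, 241 and 326 in gastrocnemius (log2 fold change 6.40, SE 0.138, adjusted p = 6.09e-14). Slc34a1, the phosphate transporter of the proximal tubule, was at 5296, 5142, 4658, 4608 and 5136 CPM in kidney, with 9 counts in all gastrocnemius libraries together, mostly in replicate 1, and 1 without those 3 libraries. Per kb of exon, the scale on which genes can be compared, Kap (22125 CPM per kb) and Gpx3 (13631) were followed by Cyp4b1, a cytochrome P450 (1311), Slc34a1 (1062), Acy3, an aminoacylase (931), Klk1, a kallikrein of the connecting tubule (883), Ass1, argininosuccinate synthase (733), Tcn2, a vitamin B12 carrier (711), and Pck1, the cytosolic enzyme that commits carbon to glucose synthesis (682). These were among the 10 most abundant kidney genes per kb with a fold change of at least 32. The largest fitted fold changes among genes of at least 10 CPM were those of Slc22a6, the organic anion transporter OAT1, Miox, which breaks down inositol, Ugt2b38, a glucuronosyltransferase, Slc13a1, a sulphate transporter, and Kap. The first 4 had 0 gastrocnemius counts, so their fold is a lower bound against a floor of 3 counts over the 5 libraries: at least 55469-fold higher for Slc22a6 (848 ± 92 CPM, SD, n = 5), at least 53577-fold for Miox (819 ± 28), at least 34331-fold for Ugt2b38 (525 ± 71.8) and at least 24641-fold for Slc13a1 (376 ± 69). Reads of Ugt2b38 may be shared with other Ugt2b genes.

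Each nephron segment examined was represented. In the proximal tubule list 19 of 20 members were called higher in kidney and 0 in gastrocnemius (median log2 fold change 13.68). The exception was Aqp1, the water channel of the proximal tubule and of capillaries, at 582 ± 34.2 CPM in kidney and 408 ± 26.9 in gastrocnemius (log2 fold change 0.51). Acsm2, an acyl-CoA synthetase, was at 3149 ± 339 CPM in kidney (9 gastrocnemius counts, all in replicate 1), and at least 121649-fold higher in kidney without the 3 libraries with transcripts of other organs, where it had 0 gastrocnemius counts. In the thick ascending limb list all 10 members were called (median 10.85). Umod, which encodes uromodulin, the main protein of normal urine, was at 956, 1040, 1224, 1027 and 940.1 CPM in kidney, with 4 gastrocnemius counts, all in replicate 1. Slc12a1, the sodium-potassium-chloride cotransporter that furosemide blocks, was at 943 ± 89.6 CPM, and its 2 gastrocnemius counts put the fold at 93009 (95% counting interval 25748 to 768005). Both counts were in replicate 1, and without the 3 libraries with transcripts of other organs Slc12a1 had 0 gastrocnemius counts and was at least 37830-fold higher in kidney. Egf, the epidermal growth factor precursor, was also counted in muscle (1000 ± 46.4 against 81.6 ± 7.98 CPM).

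Further along the nephron, 8 of 10 distal and connecting tubule genes and 12 of 13 tested collecting duct genes were called higher in kidney (medians 11.22 and 11.13, or 10.44 and 10.13 with genes at 0 set at their bound). Slc12a3, the thiazide-sensitive cotransporter, was at 1017 ± 43.5 CPM in kidney with 5 gastrocnemius counts, found only in replicates 1 and 3 (0.076 and 0.0511 CPM). Aqp2, the vasopressin-controlled water channel, was at 67.7, 81.6, 80, 54.8 and 84.6 CPM in kidney and at 0.0507, 0.0496, 0.0766, 0.0534 and 0.0501 CPM in gastrocnemius (log2 fold change 10.29, SE 0.211, adjusted p = 3.62e-14). Scnn1a, the alpha subunit of the epithelial sodium channel, and Hsd11b2, which keeps glucocorticoids off the aldosterone receptor, were at 120.2 ± 3.29 and 88.1 ± 10.3 CPM in kidney and at 0.249 and 0.0305 CPM in gastrocnemius. The water channel Aqp4 (61.6 against 36.7 CPM) and the sodium-calcium exchanger Slc8a1 (90.3 against 31.9) were not called. With plain library totals 9 of the 10 distal and connecting tubule genes were called higher in kidney, Slc8a1 among them. Avpr2, the vasopressin receptor, was too low to test (0.106 CPM in kidney) and overlaps Arhgap4 on the opposite strand. Sgk1, the aldosterone-induced kinase, went the other way, at 38.7, 31.8, 30.6, 48.5 and 40.7 CPM in kidney and 229.9, 112, 267, 219.7 and 238 in gastrocnemius (log2 fold change -2.49, SE 0.209, adjusted p = 9.02e-08). The groups did not overlap, but its log2 fold change was -1.60 in the WD libraries and -1.64 with plain library totals, both under the line.

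The podocyte list was mixed. Of its 10 members 5 were called higher in kidney and 1 in gastrocnemius (median 2.15). Nphs1, which encodes nephrin of the slit diaphragm, was at 13.9, 13.5, 12.2, 13.9 and 16.2 CPM in kidney and had 2 gastrocnemius counts. Gastrocnemius also expressed several of the other members. Synpo, an actin-binding protein, was at 43.4 ± 1.53 CPM in kidney and 277 ± 21.7 in gastrocnemius (log2 fold change -2.67, SE 0.0604, adjusted p = 9.53e-14), and its log2 fold change with plain library totals was -1.83. Clic5 was at 81 and 296 CPM, Podxl at 159 and 81.8 and Cdkn1c at 8.09 and 28.4, and none of the 3 was called. Wt1, the podocyte transcription factor, was called, and 0.927 CPM of it stood in gastrocnemius replicate 5, the library with spermatid genes, against 0 to 0.0256 CPM in the other 4. Without the 3 libraries with transcripts of other organs Wt1 had 2 gastrocnemius counts and was 601-fold higher in kidney (95% counting interval 166 to 4960).

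Of the hormone genes of kidney and their partners, 7 of 9 tested were called higher in kidney and 0 in gastrocnemius (median 7.85). Kl, the co-receptor klotho, was at 623, 619.6, 567, 524 and 577 CPM in kidney and 0.862, 0.991, 1.35, 0.907 and 1.43 CPM in gastrocnemius (log2 fold change 9.03, SE 0.124, adjusted p = 9.67e-16). Vdr, the vitamin D receptor, and Pth1r, the parathyroid hormone receptor, were at 388 ± 36.1 and 329 ± 21.2 CPM in kidney and at 0.151 and 1.42 CPM in gastrocnemius. Vdr in gastrocnemius was highest in replicate 5, at 0.401 CPM against 0.0267 to 0.152 in the others. Cyp24a1, which inactivates vitamin D, was at 307 ± 103 CPM in kidney and 0 counts in gastrocnemius, and Ren1, renin, at 39.4 ± 7.22 CPM. Ace and Agt, both also made outside kidney, were not called (239.5 against 70.5 and 49.7 against 13.1 CPM). Both were called with plain library totals, where all 9 tested genes of this list were called higher in kidney. Epo, erythropoietin, was not tested, with a sum of 16 counts over the 5 kidney libraries and none in gastrocnemius.

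Among 18 transcription factors of kidney epithelium, 16 were called higher in kidney and 0 in gastrocnemius (median 8.53). Hnf4a, a master regulator of proximal tubule genes, was at 782, 694, 657, 719.9 and 757 CPM in kidney and at 0.456, 0, 0, 0 and 0.0251 CPM in gastrocnemius (log2 fold change 12.82, SE 0.345, adjusted p = 5.52e-13), again with nearly all gastrocnemius counts in replicate 1. Pax8, needed to form the nephron, was at 79.8 CPM with 0 gastrocnemius counts. Without the 3 libraries with transcripts of other organs, Umod and Hnf4a had 0 gastrocnemius counts and were called, at least 41244-fold and at least 27565-fold higher in kidney. Tfcp2l1, of the distal nephron, was at 264 ± 21.6 and 35 ± 12.2 CPM (log2 fold change 2.91). Maf (239.7 against 354 CPM) and Esrrg (67.5 against 28) were not called, and the log2 fold change of Maf, -0.56, was 0.28 with plain library totals. With those totals 17 of the 18 factors were called higher in kidney, Esrrg among them.

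Gastrocnemius was led by the contractile apparatus of fast fibres, and all 13 genes of that list were called higher in gastrocnemius (median log2 fold change -16.96). Myh4, the IIb myosin heavy chain of the fastest fibres (chr11:67238029-67260446 in GRCm38), was at 113008, 109441, 138284, 148459 and 139325 CPM in the 5 gastrocnemius libraries and had 0 counts in all 5 kidney libraries, at least 10977669-fold lower in kidney against the floor of 3 counts. Acta1, skeletal actin, was at 51603, 51532, 53455, 57416 and 53871 CPM, with 6 counts in the kidney libraries together (log2 fold change -20.95, SE 0.213, adjusted p = 1.25e-16). Ckm, the muscle creatine kinase, was at 36439, 31072, 33139, 33759 and 32431 CPM, and its 2 kidney counts put the fold at 4241503 (95% counting interval 1174169 to 35023458). Per kb of exon, the order among genes at least 32-fold higher in gastrocnemius was Acta1 (34880 CPM per kb), Myh4 (21560), Atp2a1, the SERCA1 calcium pump (20660), Tnnt3, fast troponin T (15536), Ckm (11455), Tnnc2, fast troponin C (10737), Aldoa, the muscle aldolase (7344), Actn3, the alpha-actinin of fast fibres (5908), Pvalb, the calcium buffer parvalbumin (5367), and Pygm, muscle glycogen phosphorylase (4699). In kidney Aldoa was at 181 and Pvalb, which is also known from the distal tubule, at 12.1 CPM per kb. The largest fitted fold changes were those of Myh4, Ckm, Tnnc2, Acta1 and Myh2, the IIa myosin heavy chain. Tnnc2 (8590 ± 646 CPM) and Myh2 (3769 ± 987 CPM) had 0 kidney counts, and were at least 727010-fold and 318954-fold lower there. Myh1, Myh2 and Myh4 are near-identical neighbours, so reads could be split between them, and Tnnc2 overlaps Ube2c on the opposite strand.

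Of 10 slow fibre genes 8 were called higher in gastrocnemius (median -9.71). Myh7, the slow myosin heavy chain, was at 244, 838, 717, 277 and 436 CPM, highest in replicates 2 and 3, and at 0.055 CPM in kidney (log2 fold change -13.08, SE 0.601, adjusted p = 1.47e-10). Myl3, a slow light chain, was at 111, 185, 114, 85.7 and 101 CPM. Per kb of exon, Myh4 stood at 21560 and Myh7 at 58.3 CPM per kb. The 2 members that were not called are used in many cell types: Atp2a2, the SERCA2 calcium pump, was at 333, 345, 309, 333 and 312 CPM in kidney and 268, 671, 492, 264 and 354 in gastrocnemius, with overlap and a log2 fold change of -0.33 that was 0.50 with plain library totals, and Tpm3, a tropomyosin, was at 82.6 and 118 CPM.

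All 18 sarcomere and Z-disc genes (median -13.64) and all 16 genes of excitation-contraction coupling (median -10.82) were called higher in gastrocnemius. Without the 3 libraries with transcripts of other organs 15 of those 16 coupling genes were called. Tpm1, alpha-tropomyosin, was at 23337 ± 1424 CPM in gastrocnemius and 68 ± 3.12 in kidney (log2 fold change -8.42), and Ttn, the giant spring titin, at 14625 ± 1508 and 0.806 ± 0.227 CPM (log2 fold change -14.14). Ryr1, the calcium release channel, was at 7506, 7956, 9241, 9656 and 9168 CPM with 17 kidney counts, and Cacna1s, its voltage sensor, at 1959 ± 186 CPM with 11 kidney counts. Srl, sarcalumenin of the sarcoplasmic reticulum, was at 2549 ± 205 against 3.16 ± 0.461 CPM. In the neuromuscular junction list 9 of 10 genes were called (median -5.86). Ache, acetylcholinesterase, was at 53.6 ± 8.52 CPM in gastrocnemius, Chrnb1, a receptor subunit, at 38.8 ± 2.7, and Musk, the receptor kinase that gathers them, at 30 ± 5.87. Lrp4, the agrin receptor, was at 23.9 CPM in kidney and 22 in gastrocnemius and was not called.

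**Figure D3:**
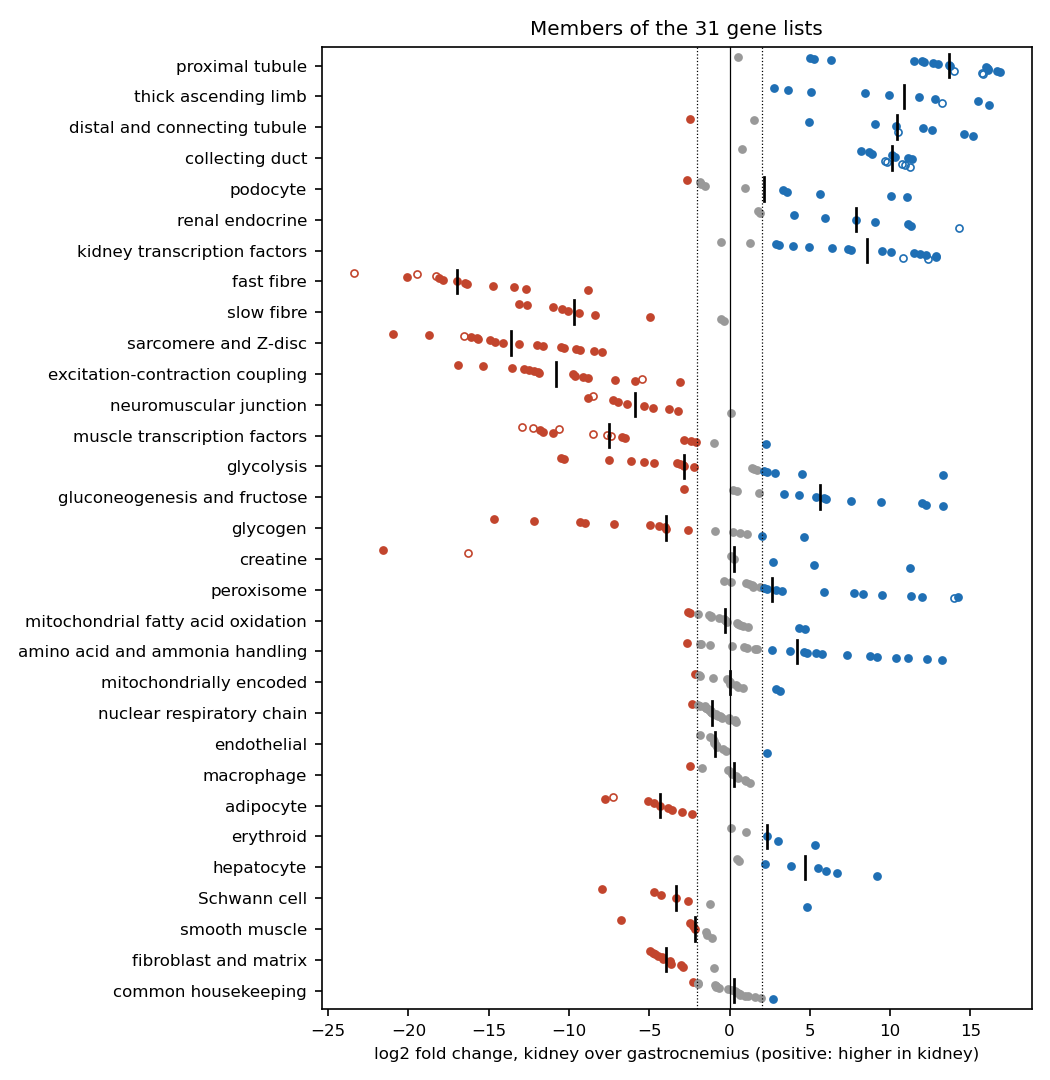
Log2 fold change, kidney over gastrocnemius, of each tested member of the 31 gene lists, with the list's median as a black bar and dotted lines at 2 and -2. Blue members were called higher in kidney, red ones higher in gastrocnemius, grey ones not called, and open circles mark genes with 0 counts in the lower tissue, drawn at their bound. The 7 kidney lists lie mainly to the right and the 6 muscle lists mainly to the left, while the lists of respiratory chain genes and housekeeping genes lie near 0.

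Of the muscle transcription factors 14 of 16 were called higher in gastrocnemius and 1 in kidney (median -9.59, or -7.50 with genes at 0 set at their bound). With plain library totals the calls were 11 in gastrocnemius and 1 in kidney. The 4 myogenic factors had 0 kidney counts. In gastrocnemius Myf6 was at 81.8, 78.3, 103, 92.8 and 113 CPM, beside Myod1 (18.5 ± 2.03), Myog (4.22 ± 1.49) and Myf5 (1.94 ± 0.265). Mef2c, which acts together with them, was at 686, 682, 659, 790.3 and 647 CPM in gastrocnemius and 8.42, 8.12, 7.99, 7.35 and 6.17 CPM in kidney (log2 fold change -6.51, SE 0.101, adjusted p = 2.69e-15). Smyd1, a methyltransferase of muscle, and Tbx15, a factor of fast fibres, were at 691 ± 43.3 and 371 ± 18.2 CPM in gastrocnemius and at 0.22 and 0.102 in kidney. Hlf, a clock-controlled factor, was the exception, at 96.6 ± 12.3 CPM in kidney and 20.04 ± 3.31 in gastrocnemius (log2 fold change 2.27, SE 0.118, adjusted p = 5.41e-10).

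The upstream sequences of muscle genes are shown here for the motifs of these factors. The 250 bases before the start of each gene in the RefSeq promoter table (GRCm38.p6) were searched on both strands for the MEF2 motif, which 3.42% of all 27025 promoters hold, and for the E-box CAGCTG that myogenic factors bind, which 14.7% hold. Neither overlaps the other in the sequences below. Of the 647 protein-coding genes at least 32-fold higher in gastrocnemius, 491 (75.9%) had an entry, too few for a comparison between sets of genes, so such a comparison is void and only sequences are given. The 4 genes with the highest CPM among those that hold both motifs are shown, 5′ to 3′ on the gene's strand, with both motifs in capitals: Myh4 (chr11:67237630-67237750, plus strand), Mylk4, a myosin light chain kinase (chr13:32783985-32784104, minus strand, 2155 CPM in gastrocnemius and 0.0434 in kidney), Pgam2, the muscle phosphoglycerate mutase (chr11:5803834-5803953, minus strand, 1573 and 22.2 CPM), and Klhl41, which stabilises nebulin (chr2:69669970-69670089, plus strand, 836 and 0.303 CPM).
Myh4: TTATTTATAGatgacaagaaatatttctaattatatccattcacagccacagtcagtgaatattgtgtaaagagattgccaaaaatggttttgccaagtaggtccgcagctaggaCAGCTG
Mylk4: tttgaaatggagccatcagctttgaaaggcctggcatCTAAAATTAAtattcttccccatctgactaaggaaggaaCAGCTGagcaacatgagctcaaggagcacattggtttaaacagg
Pgam2: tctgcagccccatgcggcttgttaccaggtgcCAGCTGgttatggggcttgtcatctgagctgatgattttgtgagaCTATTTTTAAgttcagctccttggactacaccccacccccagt
Klhl41: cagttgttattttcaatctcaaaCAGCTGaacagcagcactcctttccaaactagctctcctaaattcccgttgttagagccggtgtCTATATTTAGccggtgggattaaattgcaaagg
The MEF2 match begins 182, 103, 80 and 63 bases before the RefSeq start. A match is a description of the letters and not a site of binding.

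Of 19 glycolysis genes 11 were called higher in gastrocnemius and 5 in kidney (median -2.85), and of 14 genes of glucose synthesis and fructose breakdown 10 were called higher in kidney and 1 in gastrocnemius (median 5.62). With plain library totals the glycolysis calls were 10 in gastrocnemius and 8 in kidney. Aldoa was at 22208, 20317, 20812, 22458 and 21103 CPM in gastrocnemius and 498, 547, 536, 527 and 525 in kidney (log2 fold change -5.34, SE 0.0761, adjusted p = 1.32e-15). Gapdh was at 11291 ± 571 and 1181 ± 43.8 CPM and Pfkm, the muscle phosphofructokinase, at 6001 ± 401 and 33.5 ± 2.29 CPM. On the kidney side Pck1 was at 2192, 2205, 2200, 2489 and 2601 CPM in kidney and 15.2, 11.7, 9.27, 11.3 and 15.1 in gastrocnemius (log2 fold change 7.54, SE 0.153, adjusted p = 3.29e-14). Sord, sorbitol dehydrogenase, was at 1102 ± 34.8 and 104 ± 7.65 CPM. Reads of Aldoa and Gapdh can also match processed copies in the genome.

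Glycogen genes were mostly higher in gastrocnemius, 10 of 16 against 2 in kidney (median -3.97). Pygm was at 15122 ± 1124 CPM in gastrocnemius and 3.33 ± 0.347 in kidney, and Phka1, a subunit of phosphorylase kinase, at 1588 ± 210.2 and 10.9 ± 0.472. The 2 kidney calls were the liver-type isoforms Gys2 (log2 fold change 4.63) and Pygl (2.01), and Pygl stood under the line, at 1.90 to 1.98, without any 1 of gastrocnemius replicates 2, 3 and 4 and kidney replicates 3 and 5.

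Of 7 genes of creatine synthesis, transport and phosphorylation 3 were called higher in kidney and 2 in gastrocnemius (median 0.28). Gatm, the first enzyme of creatine synthesis, was at 396, 301, 326, 324 and 340.3 CPM in kidney and 8.59, 10.8, 7.56, 6.11 and 11.3 in gastrocnemius (log2 fold change 5.25, SE 0.158, adjusted p = 1.76e-12). Gamt, the second enzyme, was at 11.1, 10.02, 11.1, 12.4 and 10.9 and 10.6, 9.27, 9.07, 8.91 and 7.72 CPM and was not called (log2 fold change 0.28). Slc6a8, the creatine transporter, was at 235, 190.1, 194, 179.6 and 204 and 178, 218, 189, 194 and 172 CPM, so the groups overlapped (log2 fold change 0.08). The 4 kinases were all called. Ckm and the mitochondrial Ckmt2 (943 ± 161 CPM, 0 kidney counts) were on the gastrocnemius side, and Ckb (43.7 ± 7.75 against 6.72 ± 1.47 CPM) and Ckmt1 (31.7 ± 1.82 CPM, 2 gastrocnemius counts) on the kidney side.

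In the peroxisome list 12 of 20 genes were called higher in kidney and 0 in gastrocnemius (median 2.62), with Cat, catalase, at 1053 ± 62.4 against 109 ± 8.05 CPM and Ehhadh, the bifunctional enzyme, at 664 ± 157 against 11.5 ± 2.16. With plain library totals the peroxisome calls were 17 in kidney and 0 in gastrocnemius. Of 18 mitochondrial fatty acid oxidation genes 2 were called in each direction (median -0.28). They were Cpt1a (4.31) and Etfb (4.69) in kidney and Cpt1b (-2.56) and Acadvl (-2.43) in gastrocnemius, and both gastrocnemius calls were under the line with plain library totals (-1.73 and -1.60). Both Cpt1b and Etfb share much of their exons with another gene model on the same strand. Acadm, the medium-chain dehydrogenase, was at 522 ± 67.2 and 359 ± 32.1 CPM (log2 fold change 0.54, but -0.23 in the WD libraries), and Hadha, of the trifunctional protein, at 191 ± 7.61 and 459 ± 54.6 CPM, and neither was called.

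Of 22 genes of amino acid and ammonia handling 13 were called higher in kidney and 1 in gastrocnemius (median 4.18). Ass1 was at 1915, 1666, 1518, 1767 and 1977 CPM in kidney and 3.95, 3.47, 2.81, 2.35 and 2.68 in gastrocnemius (log2 fold change 9.18, SE 0.151, adjusted p = 4.79e-15). The gastrocnemius call was Got1, the cytosolic aspartate transaminase (58.2 against 369 CPM, log2 fold change -2.66, and -1.83 with plain library totals). Got2, its mitochondrial counterpart, was at 169.9 ± 9.47 and 577 ± 16.8 CPM (log2 fold change -1.76), and Glul, glutamine synthetase, at 349 and 312 CPM.

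Few genes of the respiratory chain were called. Of 27 nuclear-encoded genes 1 was called higher in gastrocnemius (Cox5a, -2.34, and -1.50 with plain library totals) and 0 in kidney (median -1.06). Atp5b, the beta subunit of ATP synthase, was at 1764 ± 51.1 CPM in kidney and 2887 ± 89.1 in gastrocnemius (log2 fold change -0.71, but 0.13 with plain library totals), Atp5a1 at 891 ± 16.2 and 2478 ± 102, and Sdha, of complex II, at 505 ± 22.7 and 1109 ± 26.8. Mitochondrially encoded genes took 17.4 to 19.2% of kidney and 7.66 to 10.2% of gastrocnemius counts, but on the TMM scale mt-Co1 was at 47841, 45745, 44360, 45211 and 45443 CPM in kidney and 50280, 47575, 40960, 46705 and 42198 in gastrocnemius, with overlap and a log2 fold change of 0.01. mt-Cytb was at 25766 ± 899 and 19343 ± 2094 CPM and mt-Nd1 at 20003 ± 1711 and 14133 ± 1380, and neither was called. The calls among the 13 mitochondrial genes were mt-Nd6 and mt-Atp8 in kidney and mt-Co2 in gastrocnemius, and they are uncertain: mt-Co2 was under the line with plain library totals (-1.29) and without the 3 libraries with transcripts of other organs (-1.98), mt-Nd6 lies antisense to its neighbours and the strand setting of the counts is not given in the sources used here, and mt-Co2, mt-Co3, mt-Atp6, mt-Atp8, mt-Nd3 and mt-Nd4l had group means of 1.07 to 62.7 CPM per kb beside 29592 for mt-Co1 in kidney.

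Related genes were then compared inside each library. In 30 pairs, each of a member known from muscle and a member known from kidney or from most tissues, the share of the muscle-type gene in the summed CPM per kb does not depend on the library scaling. The pairs were chosen for their known tissue, so the direction was set by the choice and the size is what is described. The share was higher in gastrocnemius in 30 of 30 pairs with no overlap. The exact two-sided permutation test over the libraries gave its smallest p, 0.00794, in each, and the adjusted p over 30 pairs was the same. The pairs were chosen for this direction, with earlier results of these data known, so these p-values are no support for it. The median share was 99.6% in gastrocnemius and 3.5% in kidney, and by the group means the majority member changed in 24 pairs.

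In 16 pairs the muscle-type gene held over 90% in gastrocnemius and under 10% in kidney. Ckm held 99.98 ± 0.00459% of Ckm and Ckb in gastrocnemius (SD, n = 5) and 0.0164 ± 0.0227% in kidney. The glycolytic pair Eno3 and Eno1, both enolases, gave 99.5 ± 0.0234% and 3.31 ± 0.334%, and the hexokinases Hk2 and Hk1 97.8 ± 0.834% and 0.676 ± 0.157%. The Hk1 and Phkg2 levels of gastrocnemius replicate 5, the library with spermatid genes, stood above those of the other 4, 14.6, 17.1, 14, 12.8 and 31.8 CPM for Hk1 and 8.87, 8.95, 8.79, 7.58 and 18.6 CPM for Phkg2 over the 5 libraries. Without replicate 5 the gastrocnemius share of Hk2 was 98.1 ± 0.38% (SD, n = 4). The phosphorylase kinase subunits Phkg1 and Phkg2 gave 97.6 ± 1.06% and 5.4 ± 0.825%, and 98.1 ± 0.258% in gastrocnemius without replicate 5. In fructose-bisphosphatase, Fbp2 held 98.6 ± 2.71% and 1.37 ± 0.233% against Fbp1, with Fbp1 at 0.355, 0.0496, 0, 0.0267 and 3.58 CPM in gastrocnemius, and the gastrocnemius share was 99.8 ± 0.3% without replicate 5. Acta1 with Actb, Actn3 with Actn4, Myh4 with Myh9, Mylpf with Myl9, Atp2a1 with Atp2a3, Ampd1 with Ampd2, Ckmt2 with Ckmt1, Cox6a2 with Cox6a1 and Car3 with Car2 changed in the same way, from 97.0% or more in gastrocnemius to 9.06% or less in kidney.

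Kidney kept a majority of the muscle-type gene in 4 pairs: 64.1 ± 1.42% for Pfkm with Pfkl, 56 ± 2.89% for the glycogen synthases Gys1 and Gys2, 53.9 ± 1.71% for the mutases Pgam2 and Pgam1, and 96.5 ± 4.66% for the fatty acid-binding proteins Fabp3 and Fabp1. In gastrocnemius these shares were 99.9 ± 0.0156%, 99.8 ± 0.0576%, 99.8 ± 0.0269% and 99.8 ± 0.189%. Fabp1 was at 1.39, 0.178, 0.0799, 0.352 and 0.174 CPM in kidney, highest in replicate 1, the kidney library with the most albumin, and the kidney share of Fabp3 without that library was 98.6 ± 0.914%. Intermediate kidney shares were those of Pygm with Pygl (28.6 ± 3.81%), Ldha with Ldhb, the lactate dehydrogenases (22.7 ± 1.03% against 89 ± 3.59%), Slc2a4 with Slc2a2, the glucose transporters GLUT4 and GLUT2 (15.4 ± 2.22%), Slc25a4 with Slc25a5, the adenine nucleotide translocators (13.9 ± 0.586%), Adssl1 with Adss (11.2 ± 1.35%) and Tpm2 with Tpm4 (10.9 ± 1.19%).

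The muscle-type gene was in the minority in both tissues, by the group means, in 2 pairs. Cpt1b, the muscle carnitine palmitoyltransferase, held 20.2, 20.7, 15.6, 19.8 and 23.2% in the 5 gastrocnemius libraries and 0.213 ± 0.0489% in kidney, with Cpt1b at 0.79 CPM per kb in gastrocnemius and Cpt1a at 3.18. This share is uncertain, because Cpt1b lies inside the longer gene model Gm44502 on the same strand, which shares most of its exons and was listed at 0 in all 10 libraries. Cox7a1, the muscle subunit of cytochrome c oxidase, held 53.3, 48.7, 40.6, 44.5 and 43.3% in the 5 gastrocnemius libraries, a majority in replicate 1 alone, and 7.08 ± 1.03% in kidney, whereas Cox8b held 86.2 ± 0.825% and 0.0742 ± 0.0736% and Cox6a2 97 ± 0.284% and 0.336 ± 0.11%.

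**Figure D4:**
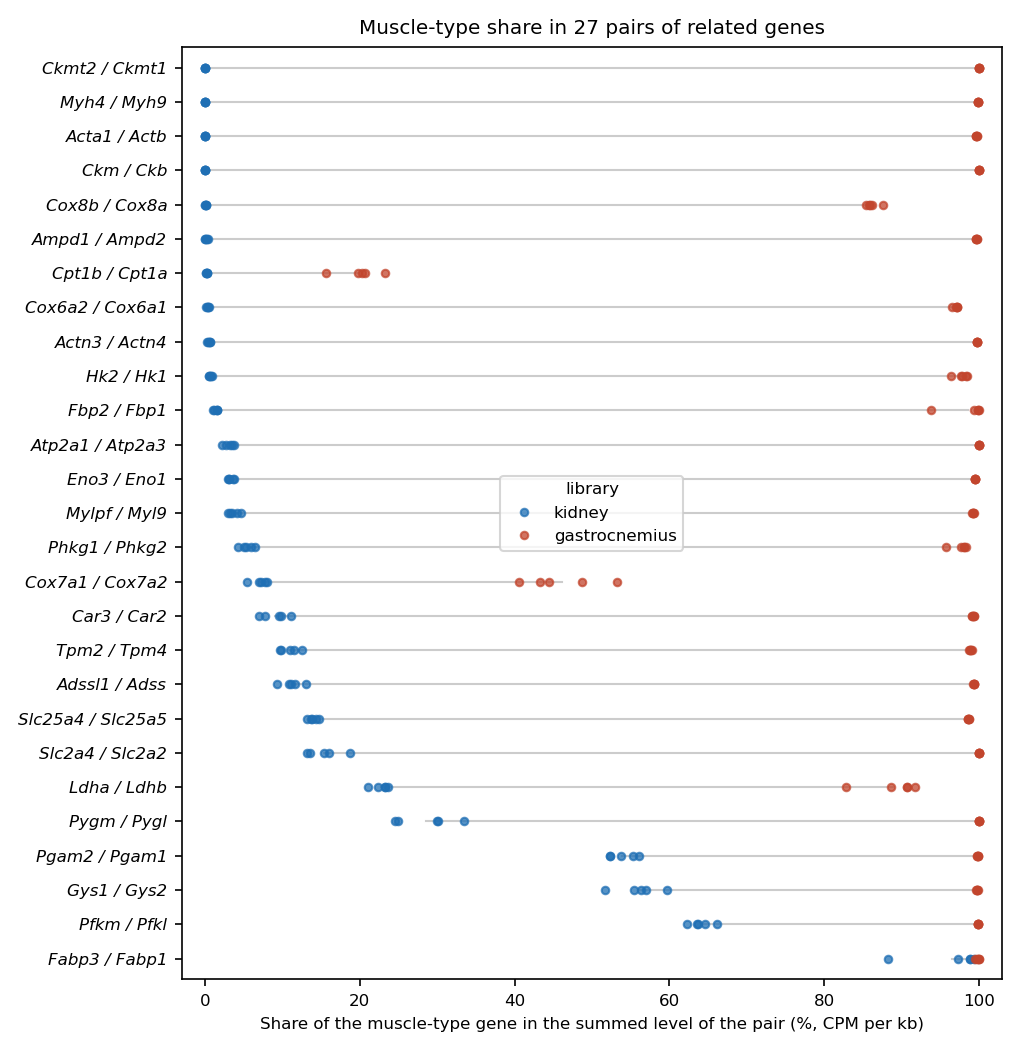
Share of the muscle-type gene (named first) in the summed level per kb of 27 of the 30 gene pairs, in the 5 kidney (blue) and 5 gastrocnemius (red) libraries, with a grey line between the group means. The groups did not overlap in any pair, Fabp3 with Fabp1 lay closest together, and Cpt1b with Cpt1a was the pair with the lowest gastrocnemius share.

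Cell types other than tubule and fibre were described from the same fit. All 9 adipocyte genes were called higher in gastrocnemius (median -4.32). Plin4, a lipid droplet protein that muscle fibres also contain, was at 363, 372, 536, 412 and 402 CPM in gastrocnemius and 1.88 ± 0.662 in kidney, Fabp4, shared with capillaries, at 117 ± 19.1 and 23.1 ± 5.01, and Cfd, adipsin, at 49 ± 16.6 and 1.43 ± 1.06 CPM. With plain library totals 8 of the 9 were called, and Fabp4 was under the line (log2 fold change -2.34, and -1.50 with those totals). Fibroblast and matrix genes were called higher in gastrocnemius in 11 of 12 cases (median -3.96), with Dcn, decorin, at 453 ± 61.5 against 20.2 ± 3.11 CPM, Col1a2 at 323 ± 91.5 against 24.9 ± 2.98 and Col1a1 at 221 ± 72.8 against 8.23 ± 1.36. Of 7 tested Schwann cell genes 5 were called higher in gastrocnemius and 1 in kidney. Mbp, a myelin protein, was at 48.6 ± 20.3 CPM in gastrocnemius and 8.01 ± 0.726 in kidney, while the kidney call was Mal (166 ± 7.1 against 5.98 ± 1.93 CPM), a sorting protein that kidney epithelium also makes. The log2 fold change of Mbp was -2.60, and -1.78 with plain library totals, under the line. Smooth muscle genes were called higher in gastrocnemius in 4 of 7 cases, Myh11 among them (90.3 ± 7.38 against 18.3 ± 1.85 CPM), and Acta2 (62.2 against 23.9) and Smtn (108 against 39.1) were not called. With plain library totals 1 of the 7 was called, and the log2 fold change of Myh11, -2.30, was -1.46.

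Few endothelial or macrophage genes were called. Of 10 endothelial genes 1 was called, Emcn, endomucin, in kidney (54.5 against 10.7 CPM), and the median was -0.90. Cdh5 was at 28.6 ± 2.03 CPM in kidney and 101 ± 8.25 in gastrocnemius, Pecam1 at 48 ± 3.19 and 99.9 ± 3.98, and Flt1 at 57.9 ± 7.32 and 99.5 ± 1.26 (log2 fold change -0.78, but 0.06 with plain library totals). Of 10 macrophage genes 1 was called, the mannose receptor Mrc1, in gastrocnemius (13.8 ± 4.17 against 2.51 ± 0.5 CPM, log2 fold change -2.46, but -1.63 and under the line with plain library totals, where the counts were 1 in kidney and 0 in gastrocnemius), while Csf1r (50.9 ± 4.68 in kidney against 21 ± 4.68) and Lyz2 (12.5 ± 2.42 against 41.3 ± 8.74) were not. Erythroid genes varied between libraries. Hbb-bs was at 15.8, 6.34, 27, 68 and 12.2 CPM in kidney and 3.88, 2.97, 0.996, 5.82 and 2.63 in gastrocnemius (log2 fold change 2.99, 2.24 without kidney replicate 4 and 1.79 in the WD libraries), Hba-a1 at 12.5, 5.02, 21.6, 49.3 and 10 and 4.18, 2.85, 1.97, 7.52 and 2.76, with overlap (log2 fold change 2.36, 1.68 without kidney replicate 4 and 1.18 in the WD libraries), and Hba-a2, a near-identical copy of Hba-a1, at 4.14 ± 3.93 and 0.102 ± 0.0575 (log2 fold change 5.31, and 4.56 without kidney replicate 4). Of these values, 1.79, 1.68 and 1.18 were under the line. Of 8 tested hepatocyte genes 6 were called higher in kidney. Apob, which proximal tubule cells also express, was at 265, 257, 246, 299.6 and 216 CPM in kidney and 1.8, 0.0991, 0.0255, 0.293 and 0.0251 in gastrocnemius, Ttr, transthyretin, at 80.6 ± 21.3 and 0.794 ± 1.37, and Fga, a fibrinogen chain, at 44 ± 16.6 and 0.98 ± 1.98, with gastrocnemius replicate 1 highest in each. Without the 3 libraries with transcripts of other organs their log2 fold changes were 10.82, 8.27 and 8.17.

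The Hox genes, which record the position of a tissue along the body, differed by cluster. Of the 32 tested of 39, 12 were called higher in kidney and 5 in gastrocnemius. In the HoxB cluster all 8 tested genes, Hoxb2 to Hoxb9, were called higher in kidney (median 4.06), with Hoxb3 (log2 fold change 2.06) under the line in the WD + CHP libraries (1.86) and without gastrocnemius replicate 4 (1.92). Hoxb8 was at 26.1, 25.9, 28.5, 26.5 and 29.7 CPM in kidney and 0.228, 0.347, 0.511, 0.32 and 0.376 in gastrocnemius (log2 fold change 6.25, SE 0.119, adjusted p = 1.85e-14). In the other clusters the calls went both ways, 1 and 2 of 11 in HoxA, 1 and 2 of 7 in HoxC and 2 and 1 of 6 in HoxD, for kidney and gastrocnemius. Per kb of exon the highest Hox levels in kidney were those of Hoxd8 (20.3 CPM per kb), Hoxb6 (14.7) and Hoxa7 (11.9), and in gastrocnemius those of Hoxc10 (39.6), Hoxd8 (20) and Hoxd9 (13.2). Hoxd8 overlapped between the tissues, at 50.4, 58.5, 56.6, 55.5 and 57 CPM in kidney and 50.7, 51, 54.6, 61.6 and 56.6 in gastrocnemius (log2 fold change 0.02), and Hoxd9 at 25.4 ± 2.21 and 28.2 ± 2 CPM. Hoxa9 was at 43 ± 1.97 and 9.07 ± 1.28 CPM and called for kidney, and Hoxa7 at 34.4 ± 2.04 and 10.9 ± 0.753 and not called. Hoxc10 was at 17.5, 16.7, 18, 16.9 and 17.3 CPM in kidney and 73.8, 72.5, 74.7, 80.1 and 76.7 in gastrocnemius (log2 fold change -2.13, SE 0.0429, adjusted p = 3.08e-14), but its log2 fold change was -1.29 with plain library totals and -1.99 in the WD libraries. The other gastrocnemius calls were Hoxc11 (-3.58), Hoxa11 (-2.62, and -1.78 with plain library totals), Hoxa13 (6.79 ± 0.919 CPM, 1 kidney count) and Hoxd4 (0.479 ± 0.0402 CPM, 0 kidney counts), and Hoxd4 overlaps Hoxd3 in the annotation, as does Hoxb3 an antisense transcript, so their counts are uncertain.

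**Figure D5:**
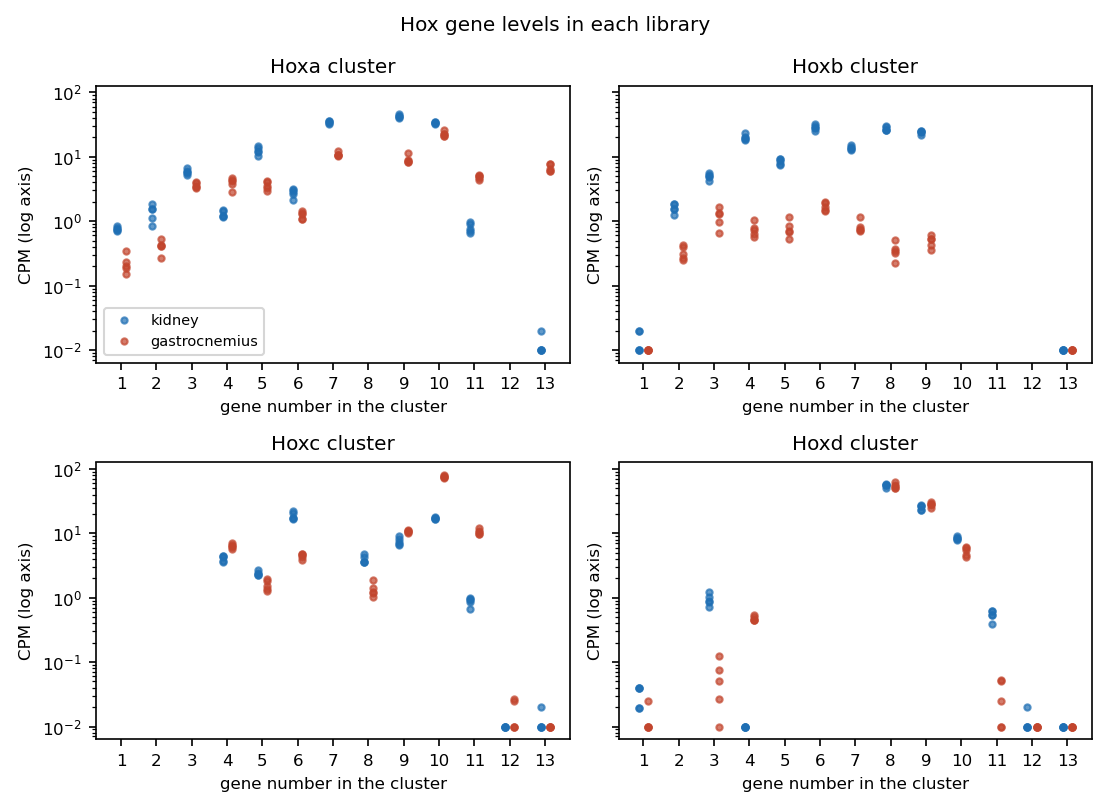
Level (CPM, log axis) of each Hox gene of the 4 clusters by its number in the cluster, in the 5 kidney (blue) and 5 gastrocnemius (red) libraries, with values under 0.01 drawn at 0.01. The Hoxb2 to Hoxb9 points of kidney lie above those of gastrocnemius in every library, while Hoxc10, Hoxc11, Hoxa11 and Hoxa13 lie higher in gastrocnemius.

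Gene families were also taken by their symbols. Of the 319 tested Slc transporter genes 144 were called higher in kidney and 30 in gastrocnemius. Claudins, which seal tight junctions, were called higher in kidney in 11 of 16 cases and in gastrocnemius in 0, cytochromes P450 in 35 and 1 of 51, and UDP-glucuronosyltransferases in 10 and 0 of 10. On the gastrocnemius side stood 7 of 7 troponins, 10 of 13 Myh genes, 12 of 18 Asb genes, which encode substrate receptors of ubiquitin ligases, 11 of 19 Cacn genes and 20 of 44 collagens, against 0, 0, 1, 2 and 6 in kidney. Ribosomal protein genes (4 and 6 calls of 92, for kidney and gastrocnemius) and proteasome subunits (0 and 1 of 38) had few calls.

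Of 20 housekeeping genes 1 was called higher in kidney (Ywhaz, 2.69) and 1 in gastrocnemius, with a median of 0.26. These counts were 3 and 0 with plain library totals and 1 and 3 without the 3 libraries with transcripts of other organs. Eef2, the translocase of translation, was at 1332 ± 47.6 CPM in kidney and 2431 ± 139.8 in gastrocnemius, and Rplp0 at 329 ± 17.9 and 583 ± 7.55 CPM (log2 fold change -0.82, but 0.02 with plain library totals). Vcp, an ATPase of protein turnover, lay just under the line at -1.99, and passed it without any 1 of gastrocnemius replicates 1 and 2 and kidney replicate 2 (-2.01 without gastrocnemius replicate 1).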

How the data were processed

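Poly(A) RNA of mouse kidney and gastrocnemius had been sequenced. The authors deposited counts that were not normalised, in 1 table per tissue. The submitters' processing notes name STAR 2.7.3a and GRCm38 (mm10), and the counting tool, annotation and strand setting are not given in the sources used here. Columns were assigned to libraries through their labels. The tables list 54838 (kidney) and 55487 (gastrocnemius) gene IDs, and the 54500 found in both, all in GENCODE M21, were used. The others held 0.0254 to 0.0297% and 0.0127 to 0.0144% of counts. No 2 libraries of a tissue were copies (chi-square per gene at least 10.9).

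The 10 CD libraries were fitted in edgeR 4.0.16 (R 4.3.3) with the quasi-likelihood test for tissue, two-sided, after filterByExpr with a minimum count of 10 and TMM scaling, with Benjamini-Hochberg adjustment over the genes tested. A call needs an adjusted p under 0.05 and an absolute log2 fold change of at least 2. The scripts were tested on simulated data. CPM per kb uses merged exons of GENCODE M21, which overstates the length of genes with many transcripts. With 0 counts in a group, a fold is a bound at 3 counts over its 5 libraries, and 95% counting intervals cover counting error only. Pair shares were compared by an exact permutation test. Lists, pairs, members and the rule for named genes were chosen with earlier results of these data known: the 10 most abundant genes per kb and the 5 largest fold changes in each direction, the 3 most abundant members of each list and those called against its side, both members of each pair, and the 3 Hox genes of the highest mean CPM in each tissue. Other genes are named because their values were seen, and some genes and pairs are not reported here. Alternatives were other scalings, filters, fold lines and tools (DESeq2 1.42.0, limma 3.58.1), the other diets, thinned counts, a replicate block and leaving out libraries. Python 3.11.15 and matplotlib 3.10.9 made the plots.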

Additional observations from a re-analysis of the deposited data

Results flagged for a closer look

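Within groups of 5, 1 library lay apart from the rest by Dixon's ratio (above 0.71) in 14 of 266 groups checked. The groups were those of the genes named by the rule with a mean of at least 1 CPM, and chance alone gives about 1 in 20. Genes named for other reasons, among them Alb, Ldhc, Prm2 and Akap4, lay outside this check. Gastrocnemius replicate 5, the library with spermatid transcripts, was the highest for Hk1 and Phkg2: Hk1 was at 31.8 CPM in gastrocnemius replicate 5 against 12.8 to 17.1 CPM in the other 4, and Phkg2 at 18.6 CPM in gastrocnemius replicate 5 against 7.58 to 8.95 CPM in the other 4. Gastrocnemius replicate 2 was the highest for 4 genes: Podxl was at 94.8 CPM in gastrocnemius replicate 2 against 77.4 to 80.2 CPM in the other 4, Myl3 at 185 CPM in gastrocnemius replicate 2 against 85.7 to 114 CPM in the other 4, Hoxa9 at 11.3 CPM in gastrocnemius replicate 2 against 8.22 to 8.88 CPM in the other 4, and Hoxa7 at 12.2 CPM in gastrocnemius replicate 2 against 10.4 to 10.7 CPM in the other 4. Gastrocnemius replicate 3 was the highest for Plin4 and the lowest for Myh11 and Acta2: Plin4 was at 536 CPM in gastrocnemius replicate 3 against 363 to 412 CPM in the other 4, Myh11 at 77.2 CPM in gastrocnemius replicate 3 against 92.1 to 95.2 CPM in the other 4, and Acta2 at 50.1 CPM in gastrocnemius replicate 3 against 64.1 to 66.4 CPM in the other 4. Mef2c was at 790.3 CPM in gastrocnemius replicate 4 against 647 to 686 CPM in the other 4. In kidney, Sdha was at 467 CPM in kidney replicate 5 against 506 to 523 CPM in the other 4, Mal at 154 CPM in kidney replicate 1 against 167 to 172 CPM in the other 4, Slc25a4 at 111 CPM in kidney replicate 4 against 118 to 119.9 CPM in the other 4, and Car2 at 206 CPM in kidney replicate 4 against 218 to 222 CPM in the other 4.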

How the results depend on the processing

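The counts of calls kept within 1.5 times of their value under every alternative run except 2. Without the filter on low counts (34374 genes tested) there were 10288 calls, 6069 higher in kidney and 4219 in gastrocnemius, and with a log2 line of 1 there were 9945, 5479 and 4466. Leaving out each library in turn gave 6029 to 6251 calls, 3642 to 3819 in kidney and 2370 to 2556 in gastrocnemius, and no call of the 5994 turned to the other tissue in any fit. The replicate block, with the replicate number of the labels as the block, gave 6039 calls (3615 and 2424). The deviations of same-numbered libraries correlated at -0.049 to 0.081, and 2 of 5 correlated best with their own number. Such values between 2 unlike tissues cannot decide whether same-numbered libraries came from the same mouse. DESeq2 called 3586 and 2405, limma-voom 3669 and 2428, glmTreat 3121 and 2202, the WD libraries 3579 and 2442 and the WD + CHP libraries 3713 and 2470. Of the genes named by the rule, none that was called changed sign, and 12 that were not called did. Plain library totals turned Maf (0.28), Atp2a2 (0.50), Atp5b (0.13), Flt1 (0.0589), Rplp0 (0.0159) and Atp2a3 (0.76). The others were Acadm (-0.23 with the WD libraries, -0.0296 with the WD + CHP libraries), mt-Co1 (-0.11 with the WD libraries, -0.25 with the WD + CHP libraries, -0.0088 with 1 model of all 30 libraries, -0.0077 with a fit without the 3 libraries with transcripts of other organs, -0.032 to 0.0444 leaving out each library in turn), Tpm4 (-0.14 with the WD libraries, -0.28 with the WD + CHP libraries, -0.0011 with a fit without mitochondrially encoded genes, -0.008 with 1 model of all 30 libraries, -0.0319 with a fit without the 3 libraries with transcripts of other organs, -0.0319 to 0.0264 leaving out each library in turn), Fabp1 (-0.40 to 1.00 leaving out each library in turn), Hoxd8 (-0.0068 to 0.0652 leaving out each library in turn), Hoxd9 (0.16 with the WD libraries, 0.0263 with the WD + CHP libraries, 0.69 with plain library totals). The causes were not tested. Depth limits the genes at 0, whose folds are bounds set by a floor of 3 counts over 5 libraries.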
